A study of Saccharomyces cerevisiae with 4 samples.

Results

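The 7 genes described here are the yeast genes of guided entry of tail-anchored proteins (SGT2, GET4, MDY2, GET3, GET1 and GET2) and MSP1. They were taken by gene name from a table of 6782 genes, a choice made with earlier results of these data known. All 7 were found and passed the filter on low values (a mean of at least 1 CPM). The samples are 4 RNA libraries of Saccharomyces cerevisiae, budding yeast, of the W303 background. Every culture carried 1 copy of a construct named 6xIAPP at the LEU2 locus, driven by a promoter that responds to estradiol. IAPP, islet amyloid polypeptide, is a hormone of pancreatic beta cells that can form amyloid. The 2 induced cultures received 100 nM estradiol and the 2 uninduced cultures received the solvent DMSO, both for 6 h in log phase. A library with estradiol but without the construct was not analysed here, so the inducer and the construct cannot be told apart, and the level of the 6xIAPP transcript itself was not analysed here. The arms are described by the submitters as biological replicates.

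A tail-anchored protein has a single membrane span at its C-terminal end, so the ribosome releases it before the signal recognition particle can act, and it must be inserted afterwards. In yeast, Sgt2 takes the new protein from cytosolic Hsp70, the Get4-Mdy2 complex (Mdy2 is also called Get5) hands it to the ATPase Get3, and Get3 brings it to its receptor in the endoplasmic reticulum (ER), made of Get1 and Get2. Msp1 is an AAA ATPase anchored in the outer membrane of mitochondria and in peroxisomes, where it pulls out tail-anchored proteins that were inserted into the wrong membrane.

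The set did not move as a block. The mRNAs of GET3, MSP1 and SGT2 rose in the induced libraries, those of MDY2 and, less firmly, GET2 fell, and those of GET1 and GET4 passed the test in neither direction. Levels are normalized CPM (read counts divided by a library size that the authors scaled), relative to all other mRNA of the sample, so that more cells with a transcript and more transcript per cell cannot be told apart. A log2 fold change is the induced minus the uninduced mean of log2(CPM + 1), given with its standard error, and a call is an adjusted p under 0.05 in limma over the 6037 genes tested. The transcriptome as a whole shifted widely, with 72.7% of genes tested called in either direction, 35.6% higher and 37.0% lower. Calls that were higher made up 49.1% of all calls, and 60.0% with each library scaled to its own total, a scaling that moved the median of all genes to 0.12. The 5 of 7 genes called here, 3 higher and 2 lower, are therefore a share near the background. Against a 1.2-fold change, 4 of the 7 passed (GET3, MSP1, SGT2 and MDY2), beside 44.5% of genes tested. The authors' deposited table called fewer genes than limma. In it, 2606 of 6782 genes had an adjusted p under 0.05, 1287 higher and 1319 lower, among them GET3, MSP1, SGT2 and MDY2. The 2 groups did not overlap in 5 of the 7 genes, beside 86.0% of genes tested. The median log2 fold change over the 7 genes was -0.06 (0.07 with total scaling), beside -0.00042 over all genes tested. Each of the 7 genes rested on 886 to 10173 reads per library, recovered from libraries of 10397606 to 15582338 reads, and the largest log2 gap within a pair of replicates was 0.14 (GET4, induced).

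**Figure D1:**
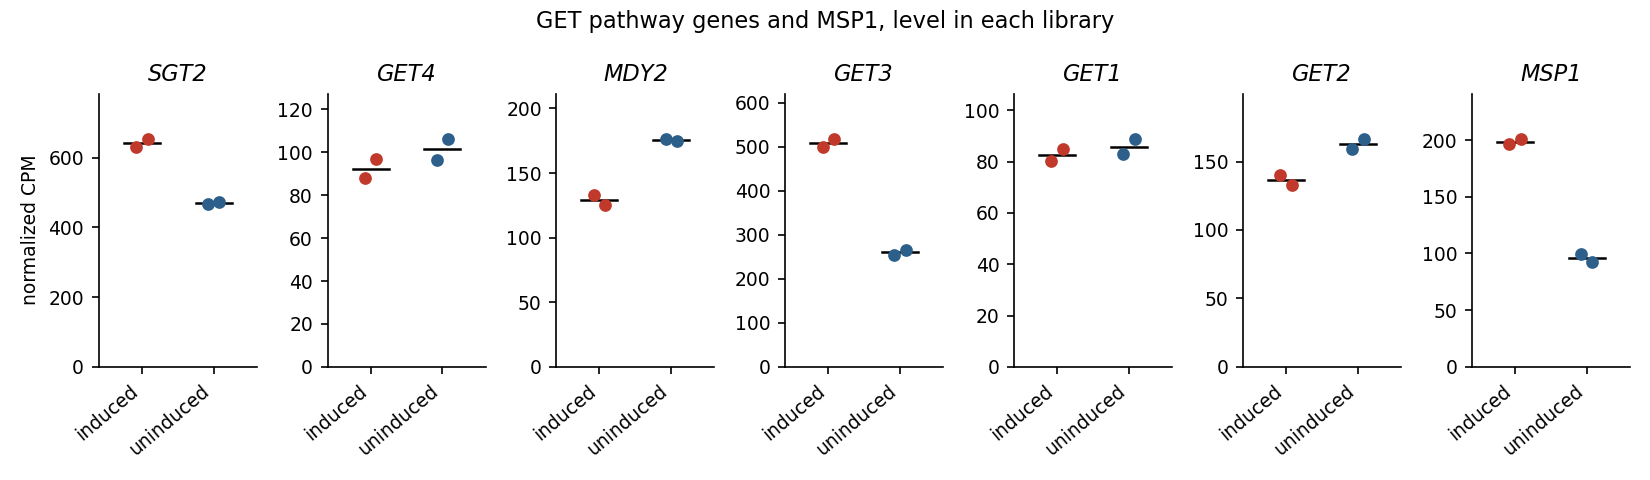
Normalized CPM (vertical axis, from 0, with its own scale for each gene) of the 7 genes in the 2 induced (red) and 2 uninduced (blue) libraries. Points are libraries and black lines are means of 2. GET3, MSP1 and SGT2 sit higher in both induced libraries, MDY2 and GET2 sit lower, and the points of GET1 and GET4 overlap between the groups.

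SGT2 (YOR007C, chromosome XV, 338938 to 339978, minus strand) encodes the co-chaperone that first captures tail-anchored proteins, and its annotation in the deposited table also names it as an amyloid sensor. It had 631 and 653 CPM in the induced libraries, against 466 and 473 CPM in the uninduced libraries. Both induced libraries were above both uninduced ones, and the gap between the groups was wider than the gap within either pair. The mean was 642 ± 16.1 CPM in induced and 469.7 ± 5.24 CPM in uninduced libraries (SD, n = 2 each), a ratio of 1.37, with a log2 fold change of 0.45 ± 0.05 (limma adjusted p = 2.87e-06). In the authors' deposited table SGT2 had a log2 fold change of 0.45 and an adjusted p of 0.0471. The 300 bases before its start codon are printed, as are those of GET3 and MSP1, which also rose. The stretch of SGT2 holds 1 of the regulatory motifs searched for, the Rpn4 element GGTGGCAAA. This element is in capitals on the strand opposite to the gene, 97 to 89 bases before the start codon (R64, chrXV:339979-340278, minus strand, 5′ to 3′).
SGT2: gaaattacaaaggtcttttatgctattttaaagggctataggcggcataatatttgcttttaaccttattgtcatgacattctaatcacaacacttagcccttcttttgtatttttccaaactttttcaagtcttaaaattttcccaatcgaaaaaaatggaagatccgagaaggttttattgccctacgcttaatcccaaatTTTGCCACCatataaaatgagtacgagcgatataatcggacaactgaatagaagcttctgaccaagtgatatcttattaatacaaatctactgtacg

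GET4 and MDY2 encode the partners that link Sgt2 to Get3, and their mRNAs differed in call. GET4 (YOR164C, chromosome XV, 643394 to 644332, minus strand) had 88.0 and 96.9 CPM in induced libraries, against 96.6 and 106 CPM in uninduced libraries. The groups overlapped, since the higher induced library lay just above the lower uninduced one. Its log2 fold change was -0.13 ± 0.07 (limma adjusted p = 0.10). Without uninduced library 1 the same gene passed as lower (-0.20, limma adjusted p = 0.0209; its alternatives gave 0.0209 to 1). MDY2 (YOL111C, chromosome XV, 108258 to 108896, minus strand) had 133 and 125 CPM in induced libraries, against 176 and 175 CPM in uninduced libraries. Both induced libraries were below both uninduced ones. MDY2 averaged 129 ± 5.57 CPM in induced and 175 ± 1.22 CPM in uninduced libraries (SD, n = 2 each), 26.2% lower in the induced ones, and it fell by 0.44 ± 0.05 on the log2 scale (limma adjusted p = 9.17e-06). For MDY2 the authors' deposited table gives -0.44 with an adjusted p of 0.0463, and for GET4 it gives -0.13 with an adjusted p of 0.567.

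GET3 (YDL100C, chromosome IV, 282112 to 283176, minus strand), the ATPase that carries the tail-anchored protein to the ER, had 499 and 517 CPM in induced libraries, against 255 and 265 CPM in uninduced libraries. The groups were widely separated. The mean was 508 ± 13.2 CPM in induced and 259.9 ± 6.87 CPM in uninduced libraries (SD, n = 2 each), a ratio of 1.95, and the log2 fold change was 0.96 ± 0.05 (limma adjusted p = 2.43e-09). Of the 6037 genes tested, 458 (7.59%) had a higher log2 fold change. The authors' deposited table gives GET3 0.97 with an adjusted p of 8.21e-06. The 300 bases before its start codon are shown for comparison with those of SGT2 and MSP1, which also rose. The 58 bases farthest from the start codon lie in the neighbouring gene BUG1 (R64, chrIV:283177-283476, minus strand, 5′ to 3′). Capitals mark GGTGGCAA, the first 8 letters of the Rpn4 element, a search added after the sequences had been read, found 87 to 80 bases before the start codon.
GET3: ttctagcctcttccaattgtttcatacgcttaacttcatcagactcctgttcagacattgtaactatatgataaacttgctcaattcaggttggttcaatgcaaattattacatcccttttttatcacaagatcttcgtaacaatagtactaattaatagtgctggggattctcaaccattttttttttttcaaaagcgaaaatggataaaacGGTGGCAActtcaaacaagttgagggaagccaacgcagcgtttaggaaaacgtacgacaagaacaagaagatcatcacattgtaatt

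The receptor genes rose in neither case. GET1 (YGL020C, chromosome VII, 457163 to 457870, minus strand), which encodes the receptor subunit that releases the cargo from Get3, had 80.1 and 84.8 CPM in induced libraries, against 83.0 and 88.8 CPM in uninduced libraries. The groups overlapped. Its log2 fold change was -0.06 ± 0.06 (limma adjusted p = 0.433), and with each library scaled to its own total it turned to 0.07 (limma adjusted p = 0.357; its alternatives gave 0.231 to 1). GET2 (YER083C, chromosome V, 326174 to 327031, minus strand), which encodes the subunit that tethers Get3 to the membrane, had 140.2 and 133 CPM in induced libraries, against 159 and 166 CPM in uninduced libraries. Both induced libraries were below both uninduced ones, by a modest margin. GET2 averaged 137 ± 5.03 CPM in induced and 163 ± 5.35 CPM in uninduced libraries (SD, n = 2 each), 16.0% lower in the induced ones, and it fell by 0.25 ± 0.05 on the log2 scale (limma adjusted p = 0.00116). That call ended with libraries scaled to their totals (-0.13, limma adjusted p = 0.0542) and in a limma test against a 1.2-fold change (adjusted p = 0.904), the end of a range of 0.000277 to 0.904 over its alternatives, and in the authors' deposited table GET2 had an adjusted p of 0.241.

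MSP1 (YGR028W, chromosome VII, 542203 to 543291, plus strand), the extraction ATPase, had the largest log2 fold change of the 7, except after quantile normalization (1.06, beside 1.11 for GET3). It had 196 and 201 CPM in induced libraries, against 99.2 and 92.8 CPM in uninduced libraries. Again the groups were wider apart than the replicates within either pair. MSP1 averaged 199 ± 3.19 CPM in induced and 96.0 ± 4.52 CPM in uninduced libraries (SD, n = 2 each), a ratio of 2.07, with a log2 fold change of 1.04 ± 0.06 (limma adjusted p = 3.44e-09). A higher log2 fold change was found in 390 of the 6037 genes tested (6.46%). In the authors' deposited table MSP1 stood at 1.05 with an adjusted p of 2.93e-06. None of the motifs searched for was found in the 300 bases before its start codon, printed here beside those of the other genes that rose. The 19 bases farthest from the start codon lie in a tRNA gene (R64, chrVII:541903-542202, plus strand, 5′ to 3′).
MSP1: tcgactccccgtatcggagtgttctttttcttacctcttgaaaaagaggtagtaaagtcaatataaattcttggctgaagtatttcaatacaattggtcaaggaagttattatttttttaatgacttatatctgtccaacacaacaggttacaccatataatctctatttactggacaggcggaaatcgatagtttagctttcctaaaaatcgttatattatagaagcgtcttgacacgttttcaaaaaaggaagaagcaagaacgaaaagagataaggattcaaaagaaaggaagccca

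**Figure D2:**
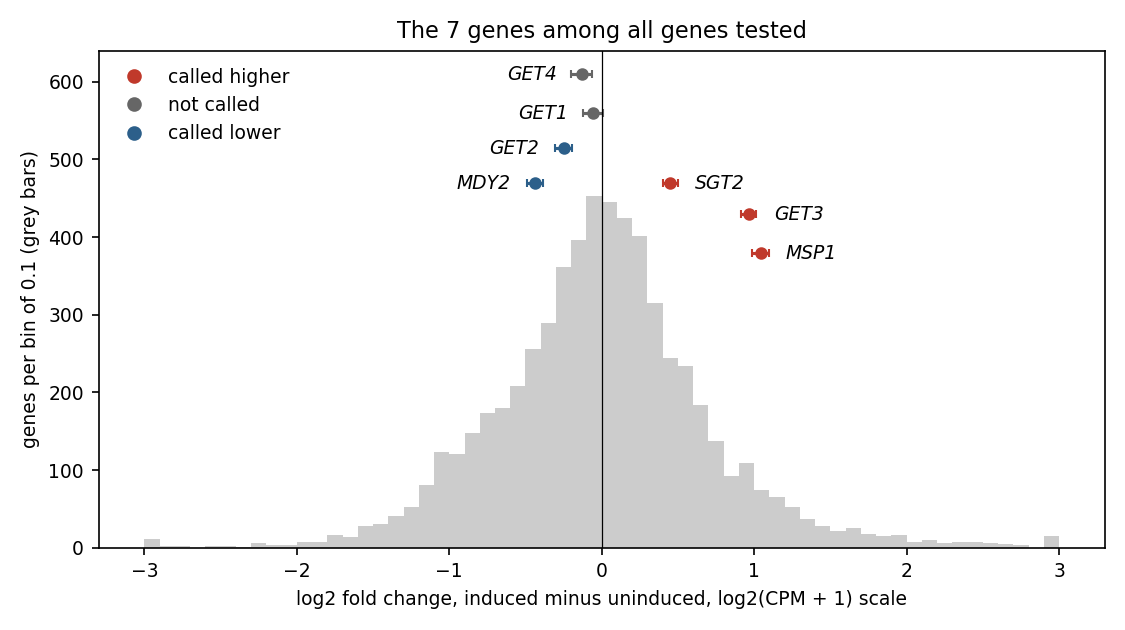
Log2 fold change, induced minus uninduced, of the 7 genes (points with standard error, height chosen for legibility) above the distribution over the 6037 genes tested (grey bars, genes per bin of 0.1, values beyond 3 in either direction drawn in the end bins). MSP1 at 1.04 and GET3 at 0.96 lie in the right flank, SGT2 at 0.45 nearer the middle, and GET1 at -0.06 and GET4 at -0.13 near 0, with GET2 at -0.25 and MDY2 at -0.44 to the left.

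The motif search covered the 300 bases before the start codon of all 7 genes, on both strands, and 6001 protein-coding genes gave the background. The Rpn4 element GGTGGCAAA, known from proteasome genes, was found in 1 of the 7 (SGT2) and in 1.22% of all promoters. Its first 8 letters, GGTGGCAA, occur within that site and again before GET3, and in 1.63% of all promoters. That shortened search was added after the sequences had been read, and no other motif was shortened. The stress response element AGGGG, which Msn2 and Msn4 bind, was found before MDY2 and in 22.2% of all promoters. The unfolded protein response element CAGCGTG, the Pdr1/Pdr3 element CCGCGG and the heat shock element were found before 0 of the 7 genes, and in 1.23%, 1.37% and 0.867% of all promoters. The stretch printed for GET3 also holds CAGCGT, all but the last letter of CAGCGTG. It is not in capitals, and its share over all promoters was not computed. A match is a run of letters only, and no match says only that these letters are not in the window.

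Of the 7 genes, 5 share their upstream stretch with a gene that points the other way, and none overlaps another gene in the R64 annotation of RefSeq. GET3 and BUG1, which encodes a Golgi-associated protein, start 242 bases apart. BUG1 had 299.7 and 277 CPM in induced libraries, against 211 and 212 CPM in uninduced libraries, and it rose by a log2 fold change of 0.45 ± 0.05 (limma adjusted p = 6.46e-06). Both genes of that pair rose. GET4 and SEY1, which encodes a GTPase that fuses ER membranes, start 233 bases apart, and SEY1 fell by 0.35 ± 0.05 on the log2 scale (limma adjusted p = 3.45e-05). The partner of GET1 across 285 bases is CKB1, a casein kinase subunit gene, with a log2 fold change of -0.06 ± 0.06 (limma adjusted p = 0.356), and that of MDY2 across 279 bases is SHR5, with -0.12 ± 0.08 (limma adjusted p = 0.203). Neither CKB1 nor SHR5 passed the test. GET2 starts 33 bases from YER084W, which had 1.30 and 0.707 CPM in induced libraries, against 2.57 and 1.503 CPM in uninduced libraries. At these levels, close to the filter of 1 CPM, YER084W did not pass (-0.59 ± 0.25, limma adjusted p = 0.0513). SGT2 and MSP1 instead lie downstream of tRNA genes on their own strand, at 320 and 281 bases.

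Set against each other per length of coding sequence, the 7 genes changed places. In CPM per kilobase, the order in induced libraries was SGT2 (617 ± 15.5), GET3 (477 ± 12.4), MDY2 (202 ± 8.72), MSP1 (182 ± 2.93), GET2 (159 ± 5.87), GET1 (116 ± 4.64) and GET4 (98.4 ± 6.66). In uninduced libraries it was SGT2 (451 ± 5.03), MDY2 (275 ± 1.90), GET3 (244 ± 6.45), GET2 (189.6 ± 6.23), GET1 (121 ± 5.81), GET4 (108 ± 7.24) and MSP1 (88.1 ± 4.15), each with SD and n = 2. No library of a gene overlapped those of its neighbour in either order. MSP1, at rank 4 of the 7 in induced libraries, was at rank 7 in uninduced libraries. Among 5704 protein-coding genes, its level per kilobase exceeded that of 81.6% in induced and 62.4% in uninduced libraries. For GET3 these shares were 94.7% in induced and 85.6% in uninduced libraries.

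The ratio of mRNA levels between proteins that work together moved accordingly. SGT2 stood at 1.29 and 1.29 times GET3 per kilobase in induced libraries, against 1.87 and 1.83 times in uninduced libraries. GET2 stood at 1.44 and 1.29 times GET1 in induced libraries, against 1.58 and 1.55 times in uninduced libraries. GET4 stood at 0.449 and 0.525 times MDY2 in induced libraries, against 0.373 and 0.414 times in uninduced libraries. None of these 3 ratios overlapped between the groups. For comparison, 86.0% of single genes tested did not overlap, and no such share was computed for ratios. MSP1 stood at 0.385 and 0.3798 times GET3 in induced libraries, against 0.3803 and 0.343 times in uninduced libraries, so that the groups overlapped. GET3 per kilobase was 4.14 and 4.06 times its receptor subunit gene GET1 in induced libraries, against 2.04 and 1.98 times in uninduced libraries, a ratio chosen after the values were seen. These ratios are given as a description and were not tested.

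**Figure D3:**
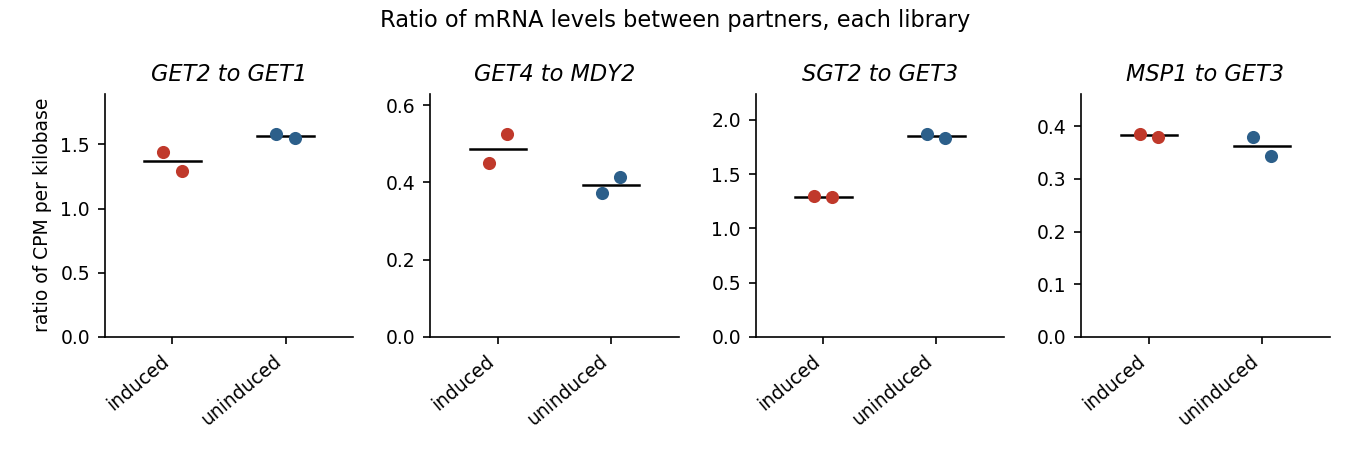
Ratio of CPM per kilobase (vertical axis, from 0) between the genes of 4 pairs of proteins in the 2 induced (red) and 2 uninduced (blue) libraries, with the mean of 2 as a black line. SGT2 to GET3 sits at 1.29 in both induced libraries, below 1.83 and 1.87 in the uninduced ones, while MSP1 to GET3 stays between 0.343 and 0.385 in all 4.

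Genes for tail-anchored proteins were counted by destination, whether or not that is the ER, to which Get3 delivers. Their counts, and those of the lists after them, stand beside 35.6% higher, 37.0% lower and a median of -0.00042 over all genes tested. These lists were chosen with earlier results of these data known. Of 32 tested genes for tail-anchored proteins of the secretory pathway and peroxisomes (of 33 listed, CSM4 being under the filter), 12 passed as higher and 7 as lower, and the median log2 fold change was 0.03. In the authors' deposited table, only BET1 of those 7 had an adjusted p under 0.05, at 0.0498. Of the 12, only FRT1, BOS1, SBH1, SYN8, DPM1 and USE1 were under 0.05 there. FRT1, which encodes an ER protein targeted by calcineurin, had 97.4 and 98.4 CPM in induced libraries, against 50.1 and 44.7 CPM in uninduced libraries (1.03 ± 0.07, limma adjusted p = 3.66e-08). The SNARE gene BOS1 (0.78 ± 0.06) and SBH1, which encodes a small subunit of the Sec61 translocon (0.76 ± 0.10), rose next most. Of 6 genes for tail-anchored proteins of the mitochondrial outer membrane, 0 passed as higher and 4 as lower, and the median was -0.57. All 4 that fell encode subunits of the import pore complex TOM. Of these, TOM7 had an adjusted p above 0.05 in the authors' deposited table, at 0.0565. TOM5 had 15.2 and 16.9 CPM in induced libraries, against 27.1 and 27.1 CPM in uninduced libraries (-0.72 ± 0.10, limma adjusted p = 2.59e-05), and TOM6 (-0.60 ± 0.07) and TOM22 (-0.59 ± 0.05) came next. The difference between the lists was not tested.

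The mRNAs of listed cytosolic chaperones, among them the Hsp70 family from which Sgt2 takes its client, went mostly the other way from SGT2. Of 10 cytosolic chaperone genes, 9 fell and 1 rose, and the median log2 fold change was -0.58. In the authors' deposited table YDJ1 (0.0626), SSA2 (0.0838), SSA1 (0.121) and HSC82 (0.187) of those 9 had an adjusted p above 0.05. The others of the 10 were under it. The Hsp70 gene SSA4 had 91.4 and 93.4 CPM in induced libraries, against 269 and 279 CPM in uninduced libraries (-1.56 ± 0.05, limma adjusted p = 6.65e-11). The disaggregase gene HSP104 fell by 0.96 ± 0.07 on the log2 scale, whereas the Hsp70 gene SSA3 rose, with 76.7 and 77.9 CPM in induced libraries, against 42.0 and 36.8 CPM in uninduced libraries (0.96 ± 0.08). SSA4 and SSA3 belong to a family of close paralogs, so the split of reads between such genes is uncertain.

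Other routes into the ER membrane were read out as well. Of 11 genes of the SND pathway and of the ER membrane protein complex (EMC), 5 passed as higher and 1 as lower, and the median log2 fold change was 0.08. In the authors' deposited table only YDR186C (0.000134) and EMC1 (0.0372) of the 11 had an adjusted p under 0.05. YDR186C, which encodes Snd1, had 395 and 405 CPM in induced libraries, against 235 and 207 CPM in uninduced libraries (0.85 ± 0.06, limma adjusted p = 4.5e-08). EMC1 fell by 0.42 ± 0.05 on the log2 scale (limma adjusted p = 7.18e-06). ENV10, which encodes Snd2, passed narrowly at 0.28 ± 0.12 (limma adjusted p = 0.0446), with groups that overlapped, at 57.7 and 76.6 CPM in induced and 50.2 and 59.4 CPM in uninduced libraries. Its call ended in 7 of 15 alternatives (adjusted p from 0.000631 to 0.722), among them quantile normalization (0.28, limma adjusted p = 0.0733), DESeq2 (adjusted p = 0.264), and the fits without induced library 2 (0.08, limma adjusted p = 0.555) and without uninduced library 1 (0.16, limma adjusted p = 0.162).

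Besides MSP1, genes listed around the removal of misplaced membrane proteins were mostly higher by limma. Of 13 such genes, 8 passed as higher and 1 as lower, and the median log2 fold change was 0.27. In the authors' deposited table, SPF1, UBC7, NPL4 and UBX2 of those 8 had an adjusted p under 0.05. UFD1 (0.113), CUE1 (0.179), SSM4 (0.295) and CDC48 (0.646) did not. SPF1, which encodes the ER ATPase that dislocates mitochondrial tail-anchored proteins from the ER, had 581 and 586 CPM in induced libraries, against 256 and 267 CPM in uninduced libraries (1.15 ± 0.05, limma adjusted p = 5.12e-10). UBC7, a ubiquitin-conjugating enzyme of the ER (0.79 ± 0.06), and NPL4, a cofactor of the Cdc48 segregase (0.77 ± 0.05), came next. The member that fell was TOM70 (-0.66 ± 0.05), the import receptor that also binds Cis1. CIS1, which encodes the protein that recruits Msp1 to mitochondria when import is blocked, had 2.11 and 1.61 CPM in induced libraries, against 2.17 and 2.00 CPM in uninduced libraries, and did not pass (limma adjusted p = 0.626). Its regulator gene PDR3 did not pass either, at 0.14 ± 0.07 (limma adjusted p = 0.0797). TOM70, CIS1 and PDR3 were singled out after their values were seen. UBC6 stands in this list and among the tail-anchored proteins.

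**Figure D4:**
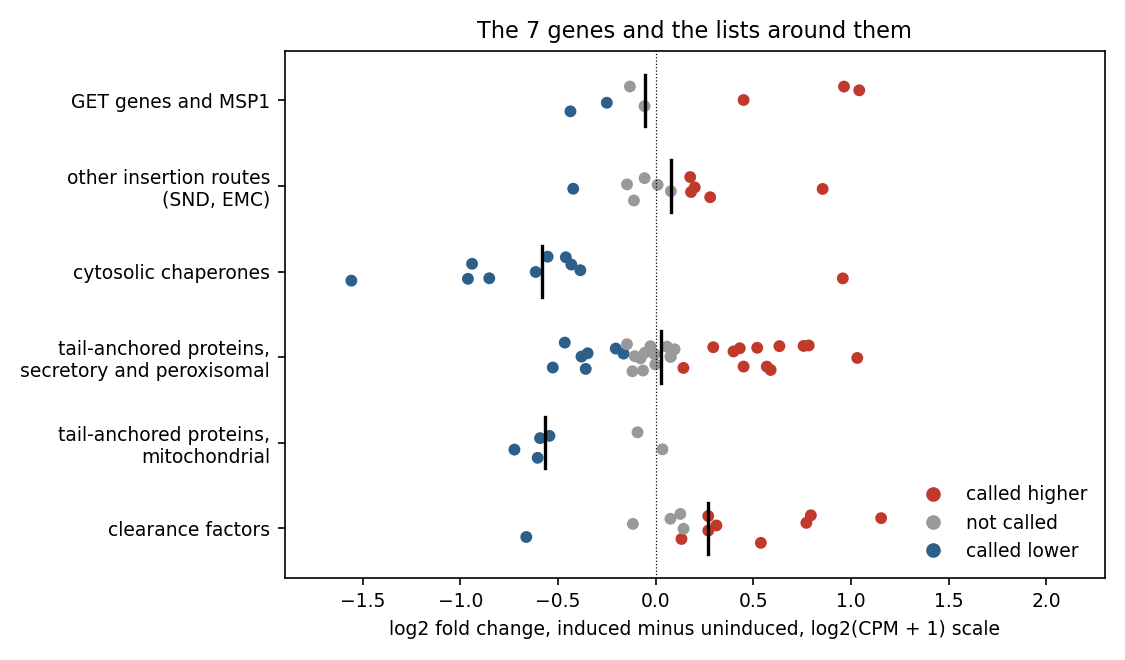
Log2 fold change, induced minus uninduced, for the 7 genes and for 5 lists of related genes, with red points called higher, blue points called lower and grey points not called by limma. Each point is a gene and black lines are medians, at -0.06 for the 7 genes, 0.08 for other insertion routes, -0.58 for chaperones, 0.03 and -0.57 for secretory and mitochondrial tail-anchored proteins, and 0.27 for clearance factors.

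The genes whose pattern over the 4 libraries lay nearest to that of MSP1 were CDC45, a replication factor gene, YPL216W and HSV2, a gene of the Atg18 family. Likeness was the Euclidean distance between log2(CPM + 1) values centred on each gene's mean, among 5016 genes with a mean of at least 20 CPM, and came to 0.0317 for CDC45, 0.0361 for YPL216W and 0.0397 for HSV2. By the same measure GET3 was the 82nd nearest gene, at 0.132. With 4 libraries in 2 groups, this measure mostly ranks genes by the size of their change.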

How the data were processed

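RNA of 4 yeast libraries, 2 induced and 2 uninduced, was measured by sequencing after hot acid phenol extraction and a stranded TruSeq mRNA preparation, per the labels' protocols. The submitters' processing notes list TopHat2 (2.0.13), HTSeq, edgeR, sacCer3 and R64, with no role for any of them. How strand was treated in counting, which filters were used and which annotation release served is not stated in the labels. The deposited signal per library is called CPM in the file headers, and each value was a whole multiple of 1 read's worth (100% of values within 0.001 reads), so the read counts behind the deposited values could be recovered. For uninduced library 2 that step, 0.1002 CPM, lies near a round decimal, which makes the recovery weaker evidence there. Columns summed to 945865 to 1041888, since the authors scaled libraries against each other. The authors' deposited log2 fold changes and p-values were used as a description only.

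The main test was limma 3.58.1 (R 4.3.3) on log2(CPM + 1) with an intensity trend, 2-sided, with Benjamini-Hochberg adjustment over 6037 genes with a mean of at least 1 CPM (745 left out). The deposited unit is a scaled CPM rather than the plain CPM assumed in planning, and the planned test was kept. Alternatives were other pseudocounts, filters, scalings and variance models, edgeR 4.0.16 and DESeq2 1.42.0 on the recovered reads, a test against a 1.2-fold change, the replicate number as a block, and each library left out. The fit was tested on simulated reads with known changes. Within pairs, counts differed by more than sampling noise (chi-square per degree of freedom 4.94 induced, 4.68 uninduced), so no library was a copy.

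The 7 genes and the 5 lists were chosen with earlier results of these data known. Named genes are all 7, the 3 called genes with the largest change in each list, and the 3 genes most like MSP1. Upstream neighbours were named by position, after the values were seen. Promoters were read from the R64 genome of RefSeq, as no promoter table was given, and protein sequences were not used here. The table held 6782 gene rows, and 4 further lines of it were empty.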

Additional observations from a re-analysis of the deposited data

How the results depend on the processing

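GET3, MSP1, SGT2 and MDY2 kept their direction and call in all 15 alternatives, with log2 fold changes of 0.94 to 1.11 (GET3), 1.00 to 1.17 (MSP1), 0.42 to 0.66 (SGT2) and -0.48 to -0.31 (MDY2). GET2 kept its call in 13 of 15 and lost it with each library scaled to its own total (-0.13, limma adjusted p = 0.0542) and in the test against a 1.2-fold change (-0.25, limma adjusted p = 0.904). GET1 was called in 0 of 15 and turned to 0.0673 with total scaling. Total scaling moved the median of all genes to 0.12, and 60.0% of calls were then in the higher direction, against 49.1% with the authors' scaling. It turned no called gene of the 7 or of the 5 lists, but left 4 secretory tail-anchored genes called lower, against 7. It also gave 15 secretory tail-anchored genes called higher, against 12, and 11 clearance genes called higher, against 8. The cause of these changes was not tested.

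The replicate numbers share no stated culture or day. Deviations of same-numbered libraries had a correlation of -0.009 over 5017 genes. With the number as a block, GET4 passed as lower (-0.13, limma adjusted p = 0.0398), 4512 genes were called against 4387, and 2 SND and EMC genes fell against 1. Quantile normalization also gave 2. It left 8 chaperone genes called lower, against 9, with SSA1 at -0.07 (limma adjusted p = 0.113). The median of the chaperone list was then -0.40, against -0.58. Leaving out each library in turn, GET4 ran from -0.2006 to -0.0639, the SND and EMC genes called lower from 1 to 2, and the secretory tail-anchored genes called lower from 4 (without induced library 1) to 8. A lone library was then assumed to vary like the other arm. Against a 1.2-fold change, 2685 genes were called (44.5% of genes tested), and 47.9% of these calls were higher. Called higher were 4 clearance, 1 SND or EMC, 9 secretory tail-anchored, 0 mitochondrial tail-anchored and 1 chaperone genes. Called lower were 1 clearance, 1 SND or EMC, 1 secretory tail-anchored, 4 mitochondrial tail-anchored and 8 chaperone genes. A 3-read floor was 0.193 to 0.301 CPM, far under the 7 genes. With n = 2, p-values rest on variance shared across genes.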
